A study of Mus musculus with 2 samples.

Results

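The cerebellar cortex spots described here are 75 spots of 1 section of mouse brain, out of 5561 spots kept in 2 sections (3030 in section 1 and 2531 in section 2). They were the spots of section 1 with the highest mean of ln(1 + UMIs per 10000) over 5 marker genes, Pcp2, Car8, Cbln3, Gabra6 and Fat2, among spots with at least 500 UMIs (unique molecular identifiers, each counting 1 captured RNA molecule). Each spot covers a small round area of tissue and can hold several cells of different types, so a spot was not taken as a cell. The study set regional RNA levels beside regional protein levels. Both sections came from wildtype C57BL/6 brain at ZT12 (zeitgeber time, in hours after lights on), were 10 µm thick and fresh frozen, and were profiled with 10x Visium, which captures polyadenylated RNA on an array of barcoded spots. They form 1 group, no treatment or mutant was included, and the labels give neither age nor sex nor whether the sections came from separate animals. The 75 spots were compared with the 2955 other kept spots of section 1 and with the 2531 kept spots of section 2. With 1 section holding such spots and the spots chosen on the same counts, no difference has a replicate check, so no test was run, and every interval is a 95% interval for counting error only.

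The cerebellar cortex has a molecular layer, a single row of Purkinje cells and a granular layer. Granule cells receive mossy fibre input and send parallel fibres into the molecular layer, where they contact the dendrites of Purkinje cells, the sole output neurons of the cortex. Bergmann glia have their cell bodies beside those of Purkinje cells and extend processes through the molecular layer, where stellate and basket cells, both inhibitory interneurons, are found. In the rule that chose the spots, Pcp2 (a modulator of G protein signalling) and Car8 (a carbonic anhydrase-related protein that binds the IP3 receptor) are Purkinje cell genes. Cbln3 (a secreted cerebellin), Gabra6 (the α6 subunit of the GABA-A receptor) and Fat2 (a large cadherin) are granule cell genes.

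Promoter sequence is shown for a pair of granule cell genes, a Purkinje cell gene and a Bergmann glia gene, because these genes mark the different cells whose RNA the spots mixed. The 250 bases before the transcription start, 5′ to 3′ on the strand of the gene, were taken from RefSeq on GRCm38.p6. For Pcp2 this is chr8:3625548-3625797 on the minus strand, before the most upstream of 4 listed starts. For Cbln3 it is chr14:55884257-55884506 on the minus strand, for Gabra6 chr11:42321073-42321322 on the minus strand, and for Gdf10 chr14:33923337-33923586 on the plus strand. Capitals mark every match, on either strand, to CAGATG (an E-box bound by basic helix-loop-helix factors such as NEUROD1), TTGGC (recognised by NFI factors, and GCCAA on the other strand) or AGGTCA (recognised by nuclear receptors such as RORα).
Pcp2: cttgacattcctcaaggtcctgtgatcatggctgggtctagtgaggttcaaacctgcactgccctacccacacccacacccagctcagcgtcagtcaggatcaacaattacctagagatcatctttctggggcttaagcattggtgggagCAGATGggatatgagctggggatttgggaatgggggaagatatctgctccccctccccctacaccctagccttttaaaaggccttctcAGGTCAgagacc
Cbln3: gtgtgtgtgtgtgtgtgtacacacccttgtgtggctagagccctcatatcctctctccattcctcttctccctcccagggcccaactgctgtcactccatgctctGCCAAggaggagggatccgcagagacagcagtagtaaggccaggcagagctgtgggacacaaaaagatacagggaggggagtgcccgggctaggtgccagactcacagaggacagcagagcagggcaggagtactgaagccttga
Gabra6: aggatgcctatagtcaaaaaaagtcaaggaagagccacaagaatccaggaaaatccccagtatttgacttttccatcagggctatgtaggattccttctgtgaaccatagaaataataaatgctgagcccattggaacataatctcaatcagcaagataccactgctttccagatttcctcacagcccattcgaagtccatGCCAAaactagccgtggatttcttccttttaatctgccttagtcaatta
Gdf10: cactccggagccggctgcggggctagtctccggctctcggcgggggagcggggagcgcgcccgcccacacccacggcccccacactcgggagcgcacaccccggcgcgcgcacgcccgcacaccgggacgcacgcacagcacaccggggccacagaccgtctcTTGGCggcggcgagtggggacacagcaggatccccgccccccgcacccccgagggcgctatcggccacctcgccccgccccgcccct
In the Pcp2 promoter CAGATG began 100 bases and AGGTCA 12 bases before the start. GCCAA began 145 bases before the start in Cbln3 and 49 in Gabra6, and TTGGC began 87 bases before it in Gdf10. Over all 27025 RefSeq promoters of this table, 14.48% held CAGATG, 41.94% TTGGC and 13.84% AGGTCA, so single matches were common. Of 12 granule cell list genes with an entry, 6 held TTGGC and 1 held CAGATG, and of 9 Bergmann glia list genes 5 held TTGGC and 1 CAGATG. Of 11 Purkinje cell list genes with an entry, 3 held AGGTCA, 3 held TTGGC and none held CAGATG. These matches describe letters in these windows only.

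The 75 spots held 1175482 UMIs, with a median of 17471 per spot (1005 to 36432), and 10 spots had under 5000. The other spots of section 1 held 57467747 UMIs with a median of 18156. The whole of section 1 held 58662871 UMIs and section 2 held 55851559. The sections shared 1965 spot barcodes, which belong to the array design. The files of section 1 were headed with Space Ranger 1.2.2 and those of section 2 with 2.0.1, so software version and section cannot be told apart.

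The genes used to choose the spots are given as a description. The score of the 75 spots ran between 0.918 and 2.33 with a median of 1.43. The last 5 spots inside the selection scored 0.982, 0.965, 0.963, 0.933 and 0.918, and the first 5 outside it 0.915, 0.889, 0.889, 0.883 and 0.881, so no gap separated them. Summed over the spots, Pcp2 had 1739 CPM (UMIs per 1000000 UMIs of the group) in the cerebellar spots, 44.0 CPM in the other spots of section 1 and 1.13 CPM in section 2. Per 10000 UMIs of a spot, the lowest, median and highest values of Pcp2 were 0, 12.9 and 41.8 in the cerebellar spots and 0, 0 and 17.3 in the other spots of section 1. Gabra6 had 305 CPM in the cerebellar spots, 16.1 CPM in the other spots and 0.0179 CPM in section 2. The cerebellar spots thus overlapped with the other spots in each of these genes. Although the 75 spots held 2.004% of the UMIs of section 1, they held 44.7% (43.3 to 46.2%, exact binomial interval) of its Pcp2 UMIs and 27.9% (25.5 to 30.4%) of its Gabra6 UMIs. Pcp2 was at 0 in 7 of the 75 spots, Car8 in 13, Cbln3 in 2, Gabra6 in 12 and Fat2 in 35. Shallow spots could enter on very few UMIs of these genes. The spot at rank 74 had 3967 UMIs, with 3 of Cbln3, 1 of Gabra6, 1 of Fat2 and 0 of Pcp2 and Car8. The spot of 1005 UMIs had 9.95 per 10000 of each of Pcp2, Car8 and Cbln3. The spot of 2120 UMIs had 4.72 per 10000 of each of Cbln3, Gabra6 and Fat2. Whether such spots lie in the cerebellar cortex was not tested.

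Cerebellar genes outside the rule were high in the same spots. Ppp1r17, a phosphatase inhibitor phosphorylated in Purkinje cells by cGMP-dependent kinase, had 319 CPM in the cerebellar spots, 9.15 CPM in the other spots of section 1 and 1.61 CPM in section 2, a log2 ratio of 5.12 (4.93 to 5.32) over the other spots. Its lowest, median and highest spot values per 10000 were 0, 2.24 and 10.5 in the cerebellar spots and 0, 0 and 4.54 in the other spots. En2, the hindbrain homeobox factor, had 26.4 CPM in the cerebellar spots, 3.27 CPM in the other spots and 0.806 CPM in section 2. Because spots were summed, more cells of a type and more RNA per cell cannot be told apart.

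Over 9756 genes outside the rule with a mean of both CPM values of at least 10, 371 (3.8%) were at least 2-fold higher and 202 (2.07%) at least 2-fold lower in the cerebellar spots than in the other spots of section 1. The counting interval lay wholly beyond 2-fold for 185 of the higher and 14 of the lower genes. These shares come from the contrast that chose the spots and nothing is read from them. They stand beside every list count below. A gene could pass the filter through its level in the cerebellar spots alone, which favours higher calls among scarce genes. The median log2 ratio of all these genes was 0.06. The split depended on scaling, with 307 higher and 275 lower under TMM factors and 324 higher and 251 lower when ratios were centred on the median gene. Against section 2, which did not enter the choice of spots, 553 (5.67%) were at least 2-fold higher and 320 (3.28%) at least 2-fold lower. Of the 371 genes, 339 (91.4%) were also at least 2-fold higher than in section 2, and of the 202 lower genes 150 (74.3%) were also lower there. The same 75 spots stand on one side of both comparisons.

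Of the 15 largest ratios outside the rule, among genes with a mean of at least 50 CPM, 6 belonged to the Purkinje cell list, 2 to the granule cell list and 1 to the Bergmann glia list described below, and 6 to none of them. Arhgef33, a predicted guanine nucleotide exchange factor, had 130 CPM in the cerebellar spots, 3.53 CPM in the other spots of section 1 and 1.13 CPM in section 2, a log2 ratio of 5.20 (4.89 to 5.51) over the other spots. Cnpy1, a canopy family gene linked to FGF signalling at the midbrain-hindbrain boundary in zebrafish, had 136 CPM in the cerebellar spots, 9.03 CPM in the other spots and 0.269 CPM in section 2. Homer3, a postsynaptic scaffold that binds the IP3 receptor, had 335 CPM in the cerebellar spots, 23.9 CPM in the other spots and 18.8 CPM in section 2. After Ppp1r17, Gdf10, Cnpy1 and Homer3, those next in order included Neurod1, Atp2a3, Gng13, Lhx1os, Fam107b, Cbln1, Calb1, Itpr1 and Rgs8, with log2 ratios of 3.50 down to 3.05 over the other spots. Among them, Atp2a3 is a sarco-endoplasmic calcium pump, Gng13 a G protein γ subunit and Rgs8 a regulator of G protein signalling. Lhx1os is annotated opposite Lhx1, a Purkinje cell factor with 3.40 CPM in the cerebellar spots, and no source used here says whether counting used the strand.

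**Figure D1:**
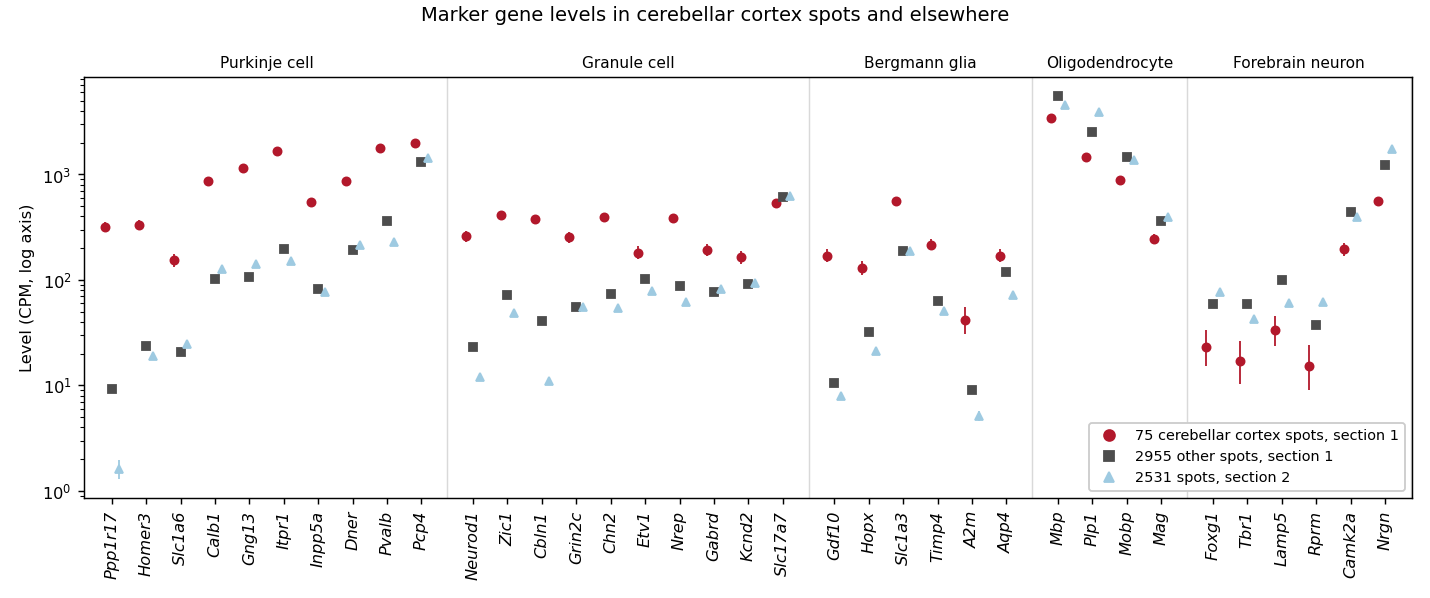
Summed level of marker genes (CPM, log axis) in the 75 cerebellar cortex spots, the 2955 other spots of section 1 and the 2531 spots of section 2, with 95% counting intervals as bars. Ppp1r17 was at 319 CPM in the cerebellar spots, 9.15 in the other spots and 1.61 in section 2.

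The Purkinje cell list of 20 genes outside the rule had 18 past the filter, of which 14 were at least 2-fold higher in the cerebellar spots than in the other spots of section 1 and none lower, with a median log2 ratio of 2.53. Calb1, the calcium buffer calbindin, had 872 CPM in the cerebellar spots, 102 CPM in the other spots and 126 CPM in section 2. Itpr1, the IP3 receptor that releases calcium from the endoplasmic reticulum, had 1665 CPM in the cerebellar spots, 195 CPM in the other spots and 150 CPM in section 2. Its lowest, median and highest spot values per 10000 were 0, 12.2 and 46.9 in the cerebellar spots and 0, 1.51 and 23.9 in the other spots. Gng13 had 1144 CPM in the cerebellar spots, 106 CPM in the other spots and 142 CPM in section 2. The ranges of single spots overlapped while the summed levels stood far apart. Pvalb, the calcium buffer parvalbumin, had 1800 CPM in the cerebellar spots and 365 CPM in the other spots of section 1. It also marks fast-spiking interneurons elsewhere, and in 75 other spots of section 1 chosen on Pvalb, Gad1 and Slc32a1 it stood at 2074 CPM. The 4 Purkinje cell list genes past the filter but within 2-fold included Pcp4, Foxp2 and Kcnab1. Foxp2, a forkhead factor, was level at 19.6 CPM in the cerebellar spots and 19.6 CPM in the other spots.

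Purkinje cells turn glutamate signals into calcium release through Gq proteins, phospholipase C and the IP3 receptor, and 9 of 21 genes of a list of that pathway with its calcium buffers and pumps were at least 2-fold higher in the cerebellar spots than in the other spots, with none lower. The 9 included Itpr1, Calb1, Pvalb, Slc1a6, Homer3, Plcb4 (phospholipase Cβ4) and Inpp5a (an inositol phosphate phosphatase). All of these named genes are also in the Purkinje cell list, so this count is not separate from that of the list. Over all 9756 genes, 3.8% were higher. Inpp5a had 550 CPM in the cerebellar spots, 82.7 CPM in the other spots and 77.0 CPM in section 2. Ryr1, the ryanodine receptor of skeletal muscle that Purkinje cells also use, had 27.2 CPM in the cerebellar spots, 6.26 CPM in the other spots and 8.43 CPM in section 2. The G proteins of the pathway stayed within 2-fold. Gnaq had 73.2 CPM in the cerebellar spots and 66.9 CPM in the other spots, and Gna11 had 91.9 and 98.1 CPM in the same order of spots.

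The granule cell list had 18 of 20 genes past the filter, with a median log2 ratio of 1.30. Of these, 11 were at least 2-fold higher than in the other spots of section 1 and none lower. A scarce member such as Pax6 could pass the filter through its level in the cerebellar spots. The number higher is therefore not read as a result about the list. Neurod1, a basic helix-loop-helix factor of granule neurons, had 259 CPM in the cerebellar spots, 22.9 CPM in the other spots and 12 CPM in section 2. Its lowest, median and highest spot values per 10000 were 0, 2.09 and 16.1 in the cerebellar spots and 0, 0 and 11.9 in the other spots. Cbln1, the cerebellin that granule cells secrete at parallel fibre synapses, had 376 CPM in the cerebellar spots, 40.5 CPM in the other spots and 11 CPM in section 2. Zic1, a zinc finger factor of the granule lineage, had 410 CPM in the cerebellar spots, 72.2 CPM in the other spots and 48.2 CPM in section 2. The granule cell list genes Slc17a7 and Vsnl1, which many forebrain neurons also use, were within 2-fold. Slc17a7, the vesicular glutamate transporter VGLUT1, had 531 CPM in the cerebellar spots, 615 CPM in the other spots and 625 CPM in section 2. Vsnl1, a calcium sensor, had 801 CPM in the cerebellar spots and 966 CPM in the other spots.

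A set of 30 spots of section 1 chosen on Prox1, Dsp, C1ql2 and Tdo2, genes of hippocampal dentate granule neurons, were set beside the cerebellar spots as a second granule population, and 884 (9.06%) of the 9756 genes were at least 2-fold higher and 648 (6.64%) at least 2-fold lower in the cerebellar spots than there. Neurod1, which both granule populations use, had 259 CPM in the cerebellar spots and 70.5 CPM in the dentate spots. Zic1 had 410 CPM in the cerebellar spots and 35.2 CPM in the dentate spots, and Barhl1, a homeobox factor of the granule lineage, had 23.8 CPM in the cerebellar spots and 2.07 CPM in the dentate spots. Gabrd, the extrasynaptic GABA-A δ subunit that both populations use, differed less, at 192 CPM in the cerebellar spots and 145 CPM in the dentate spots. Against the 75 parvalbumin and GABA spots, 761 (7.8%) genes were at least 2-fold higher and 196 (2.01%) at least 2-fold lower in the cerebellar spots. Calb1 had 872 CPM in the cerebellar spots and 73.9 CPM in the parvalbumin and GABA spots.

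A list of 34 transcription factors of the hindbrain and granule lineage had 22 past the filter. Of these, 12 were at least 2-fold higher than in the other spots of section 1 and 1, Meis2, was lower. The filter took the mean of both groups, so a scarce factor such as Meis1 could pass through its level in the cerebellar spots. The number higher is therefore not read as a result about the list. Besides Neurod1, Zic1, Barhl1 and En2, the 12 included Zic4, Zic5, Barhl2, Ebf1, Uncx, Meis1, Pax6 and Tfap2b. Meis1 had 43.4 CPM in the cerebellar spots, 8.84 CPM in the other spots and 9.92 CPM in section 2. Its paralog Meis2 had 14.5 CPM in the cerebellar spots, 31.2 CPM in the other spots and 41.0 CPM in section 2. Meis2 came within 2-fold in 4 alternative settings, with log2 ratios of -0.49 among 100 spots, -0.69 among spots of at least 5000 UMIs, -0.41 with a score of Cbln3, Gabra6 and Fat2, and -0.69 with a score of Pcp2 and Car8. Pax6 came to 0.96 among 50 spots and 0.95 with the score of Pcp2 and Car8. Atoh1, the factor of granule cell progenitors, had no UMI in any of these groups, and the interval in the cerebellar spots reached 3.14 CPM.

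Bergmann glia genes were represented as well. All 12 genes of the list passed the filter and 5 were at least 2-fold higher in the cerebellar spots than in the other spots of section 1, with a median log2 ratio of 0.72. Gdf10, a TGF-β family ligand and the defining gene of the list, had 170 CPM in the cerebellar spots, 10.5 CPM in the other spots and 7.95 CPM in section 2. Its lowest, median and highest spot values per 10000 were 0, 1.03 and 8.60 in the cerebellar spots and 0, 0 and 10.8 in the other spots. Slc1a3, the glial glutamate transporter GLAST, had 559 CPM in the cerebellar spots and 189 CPM in each of the other groups. Slc1a2, the transporter GLT-1 that predominates in forebrain astrocytes, had 864 CPM in the cerebellar spots, 1193 CPM in the other spots and 1029 CPM in section 2. Slc1a6, the transporter EAAT4 of Purkinje cells, had 154 CPM in the cerebellar spots, 20.5 CPM in the other spots and 24.5 CPM in section 2.

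Of 12 stellate and basket cell list genes, 3 were at least 2-fold higher than in the other spots, and the median log2 ratio was 0.49. Over all 9756 genes, 3.8% were higher, and the number higher is not read as a result about the list. The list includes Gad1 and Slc32a1, which also served to choose the parvalbumin and GABA spots, so it is not particular to these cells. The 3 were Kit, a receptor tyrosine kinase, Cdh22, a cadherin, and Tfap2b, a transcription factor. Kit had 74.01 CPM in the cerebellar spots, 13.5 CPM in the other spots and 13.2 CPM in section 2. Eomes, the T-box factor of unipolar brush cells, had 5.10 CPM in the cerebellar spots, 0.313 CPM in the other spots and 0.269 CPM in section 2, below the filter. Golgi cell and unipolar brush cell genes were otherwise mixed, with 7 of 11 past the filter, 1 higher (Pld5) and 1 lower (Nrgn, which came to a log2 ratio of -0.71 when each spot weighed the same).

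Markers of other cells that such spots could hold were present too. Oligodendrocyte genes summed to 7893 CPM in the cerebellar spots, 12304 CPM in the other spots and 12804 CPM in section 2, with none of 12 genes beyond 2-fold. Mbp, myelin basic protein, had lowest, median and highest spot values of 9.95, 29.0 and 230 per 10000 in the cerebellar spots and 8.38, 56.0 and 469 in the other spots, so no spot lacked it. Choroid plexus genes summed to 1912 CPM in the cerebellar spots, 2769 CPM in the other spots and 3115 CPM in section 2. Within that list Ttr, transthyretin, had 1633 CPM in the cerebellar spots, Enpp2, which oligodendrocytes also express, 242 CPM, Clic6 17.9 CPM and Folr1, Kl, Prlr, Kcne2 and Sostdc1 2.55 to 5.96 CPM. Clic6 had 10.4 CPM in the other spots and 15.7 CPM in section 2, and none of the 3 members past the filter was beyond 2-fold. Genes of the cerebellar nuclei and brainstem had 6 of 14 past the filter and none beyond 2-fold, and Hoxb5 and Hoxb3, factors of the caudal hindbrain, were at 0 in the cerebellar spots (interval up to 3.14 CPM). Of 10 microglia genes, Cx3cr1 and Tmem119 were at least 2-fold lower (log2 ratios of -1.16 and -1.06), where 2.07% of all 9756 genes were lower. Of 10 endothelial genes none was beyond 2-fold. With a score of Pcp2 and Car8 the microglia ratios were -0.93 for Cx3cr1 and -0.64 for Tmem119, and both genes were also within 2-fold among 100 spots. The part of these cells in the other results was not tested.

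Genes of forebrain neurons were lower. Of 19, 16 passed the filter, 10 were at least 2-fold lower in the cerebellar spots than in the other spots of section 1 and none higher, with a median log2 ratio of -1.16. Camk2a, the α subunit of calcium/calmodulin-dependent kinase II, had 195 CPM in the cerebellar spots, 443 CPM in the other spots and 394 CPM in section 2. Tbr1, a cortical T-box factor, had 17.0 CPM in the cerebellar spots, 58.9 CPM in the other spots and 42.8 CPM in section 2. The 10 lowest log2 ratios among genes with a mean of at least 50 CPM belonged to Basp1, Lamp5, Mal2, Stx1a, Grin2b, Egr3, Lmo4, Enc1, Mpped1 and Crym, between -1.67 and -1.30. Basp1, a growth cone protein, had 111 CPM in the cerebellar spots, 351 CPM in the other spots and 240 CPM in section 2. Mpped1 had 31.5 CPM in the cerebellar spots and 77.7 CPM in the other spots. Its highest cerebellar spot value, 16.5 per 10000, was in a spot of only 1213 UMIs, where a few UMIs give such a value. That spot counts as much as any other when each spot weighs the same. When each spot weighed the same, Camk2a, Lmo4, Stx1a and Mpped1 came within 2-fold, at log2 ratios of -0.92, -0.88, -0.95 and -0.36, and Lamp5 came to -0.85 against section 2. Rgs9, also among the 10 lower genes of the list at -1.24, came to 0.11 with a score of Cbln3, Gabra6 and Fat2. Forebrain genes were mostly lower but not absent in the summed cerebellar spots.

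Immediate early genes, which neurons induce with activity, stood lower against the other spots of section 1, with 4 of 11 past the filter at least 2-fold lower (Arc, Junb, Egr1 and Egr3) and a median log2 ratio of -0.81. Against section 2 the median was -0.06, with Junb at least 2-fold lower and Ier2 at least 2-fold higher. Arc had 30.6 CPM in the cerebellar spots, 70.7 CPM in the other spots of section 1 and 30.6 CPM in section 2. Egr3 had 27.2 CPM in the cerebellar spots, 73.6 CPM in the other spots and 52.6 CPM in section 2. When each spot weighed the same, the log2 ratios over the other spots were -0.55 for Arc and -0.89 for Egr1. Of 18 circadian clock genes, Cry1 and Nfil3 were at least 2-fold higher than in the other spots of section 1, and Nfil3 came within 2-fold among 100 spots (log2 ratio 0.93). The shares over all 9756 genes were 3.8% higher and 2.07% lower. Cry1, a repressor of the clock, had 51.9 CPM in the cerebellar spots, 20.5 CPM in the other spots and 19.1 CPM in section 2. Dbp, an output gene of the clock, had 169 CPM in the cerebellar spots, 149 CPM in the other spots and 171 CPM in section 2.

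Receptor families differed by subunit. Of 14 GABA-A receptor genes besides Gabra6, 10 passed the filter, Gabrd was at least 2-fold higher and Gabra5 at least 2-fold lower. Among all 9756 genes 3.8% were higher and 2.07% lower, and nothing is read from the number called in a receptor family. Gabrd had 192 CPM in the cerebellar spots, 76.2 CPM in the other spots of section 1 and 82.0 CPM in section 2. Gabra5, the α5 subunit abundant in the hippocampus, had 17.9 CPM in the cerebellar spots, 49.0 CPM in the other spots and 46.8 CPM in section 2. Of 12 AMPA and kainate receptor and auxiliary genes past the filter, Gria4 and Grik1 were at least 2-fold higher, and Gria4 had 214 CPM in the cerebellar spots, 56.7 CPM in the other spots and 46.1 CPM in section 2. Gabrd came to a log2 ratio of 0.80 with a score of Pcp2 and Car8, and Grik1 was within 2-fold in 7 of 14 alternative settings (0.42 to 0.97). Gria2 was level, at 212 CPM in the cerebellar spots and 214 CPM in the other spots.

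Among NMDA receptor genes, a pair of GluN2 subunits lay on opposite sides. Grin2c, the GluN2C subunit of mature granule cells, had 253 CPM in the cerebellar spots, 54.8 CPM in the other spots and 55.3 CPM in section 2, a log2 ratio of 2.20 (2.03 to 2.38) over the other spots. Grin2b, the forebrain-rich GluN2B subunit, had 40.0 CPM in the cerebellar spots, 108 CPM in the other spots and 97.5 CPM in section 2, a log2 ratio of -1.43 (-1.88 to -1.02). The obligatory subunit Grin1 had 119 CPM in the cerebellar spots and 134 CPM in the other spots. Metabotropic receptor genes also lay on both sides. Grm4, the mGlu4 receptor of parallel fibre terminals, had 134 CPM in the cerebellar spots, 36.9 CPM in the other spots and 35.4 CPM in section 2. Grm5 had 34.0 CPM in the cerebellar spots, 71.0 CPM in the other spots and 78.6 CPM in section 2. Grid1, a δ-type glutamate receptor that binds cerebellins, had 11.1 CPM in the cerebellar spots, 28.8 CPM in the other spots and 31.4 CPM in section 2. Its log2 ratio of -1.38 came within 2-fold in 3 settings, at -0.83 among 100 spots, -0.97 among spots of at least 5000 UMIs and -0.82 with a score of Pcp2 and Car8. Grm5 came to -0.68 with a score of Cbln3, Gabra6 and Fat2.

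**Figure D2:**
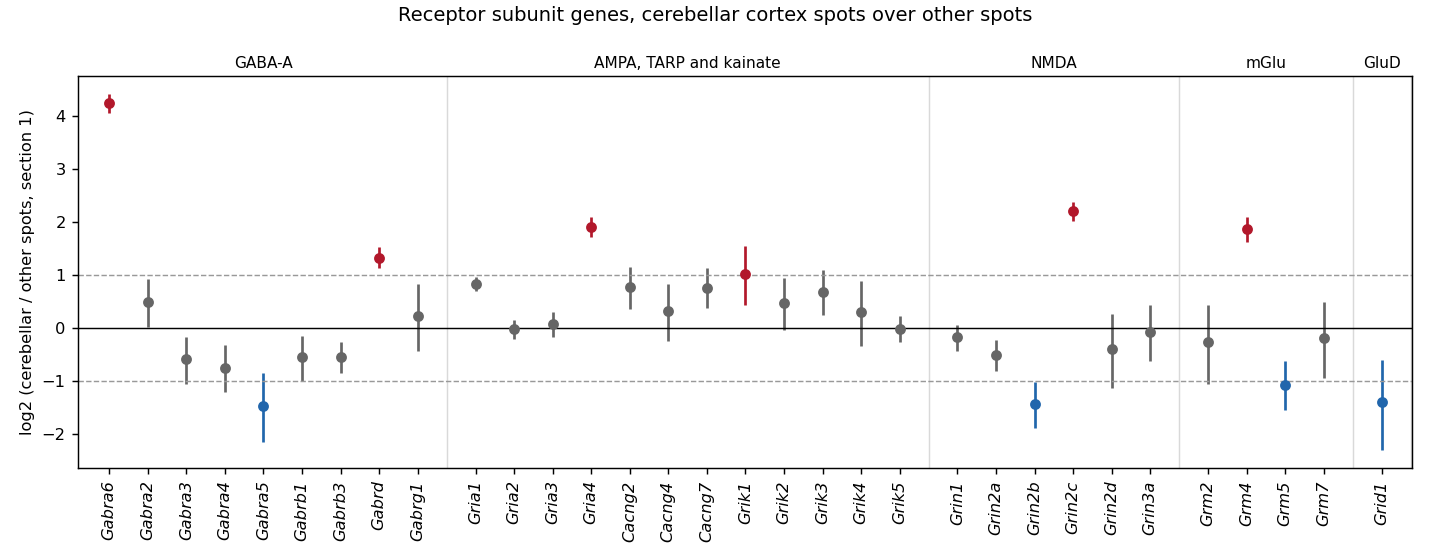
Log2 ratio of summed CPM, cerebellar cortex spots over the other spots of section 1, for receptor subunit genes by family, with 95% counting intervals, where dashed lines mark 2-fold. Grin2c lay at 2.20 and Grin2b at -1.43.

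Ion channel genes were mostly within 2-fold. Of 24 potassium channel genes, 23 passed the filter, with 2 at least 2-fold higher, among them Kcnj12, and Kcnq3 and Kcnq5 lower. Kcnj12, an inward rectifier, had 22.1 CPM in the cerebellar spots, 7.87 CPM in the other spots and 7.66 CPM in section 2. Of 23 sodium and calcium channel genes, Cacna1a and Cacna1g were higher and Cacna1h was lower. With 3.8% of all 9756 genes higher and 2.07% lower, nothing is read from the counts of either channel list. Kcnj12 came to a log2 ratio of 0.88 with a score of Pcp2 and Car8, and Cacna1h to -0.74 with a score of Cbln3, Gabra6 and Fat2. Cacna1a, the P/Q-type calcium channel named after Purkinje cells, had 188 CPM in the cerebellar spots, 65.5 CPM in the other spots and 46.6 CPM in section 2.

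Genes mutated in human spinocerebellar ataxias were a mixed list. Of 26, 23 passed the filter, 7 were at least 2-fold higher in the cerebellar spots than in the other spots of section 1 and 1, Pdyn, was lower. Across all 9756 genes the shares were 3.8% and 2.07%. Itpr1, Cacna1a and Cacna1g were among the 7 higher genes of the list. Cacna1g, a T-type calcium channel, had 64.7 CPM in the cerebellar spots, 30.6 CPM in the other spots and 35.2 CPM in section 2. It came within 2-fold against section 2 (log2 ratio 0.88) and in 3 other settings, and Pdyn did among spots of at least 5000 UMIs (-0.99) and with a score of Pcp2 and Car8 (-0.99). Several others were level, such as Atxn1 with 57.0 CPM in the cerebellar spots and 60.7 CPM in the other spots. Atxn2 had 31.5 CPM in the cerebellar spots and 31.3 CPM in the other spots.

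The spots varied among themselves in Purkinje, granule and Bergmann glia genes. A Purkinje index was the mean of ln(1 + UMIs per 10000) over 6 Purkinje cell list genes, among them Calb1, Ppp1r17, Homer3, Slc1a6 and Gng13, and a granule index the same over Neurod1, Etv1, Zic1, Zic2, Cbln1, Grin2c and Chn2. Across the 75 spots, which share 1 library, the indices had a Pearson correlation of -0.48 (Spearman -0.43). A choice of spots on a sum of both kinds of gene favours a negative value, and the relation depended on the choice. It was -0.047 among the 100 highest scoring spots, 0.35 among 75 spots chosen on Pcp2 and Car8, and 0.12 among 75 chosen on Cbln3, Gabra6 and Fat2. An index of Bergmann glia genes followed the Purkinje index at 0.90 and stayed between 0.87 and 0.90 under these other choices, but was 0.33 after each spot was thinned to 1005 UMIs. Depth moved with the Purkinje index, at 0.63 with the natural log of the UMI total. The share of mitochondrially encoded UMIs moved with the granule index, at -0.70.

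**Figure D3:**
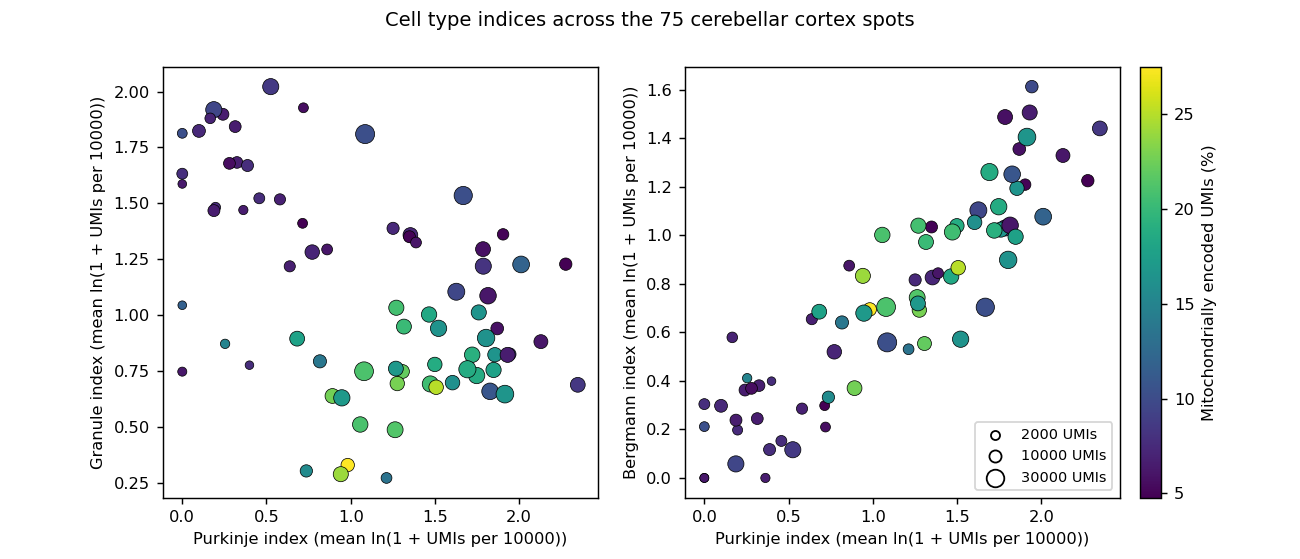
Granule index (left) and Bergmann index (right) against Purkinje index for each of the 75 cerebellar cortex spots, in mean ln(1 + UMIs per 10000), with colour for the percent of mitochondrially encoded UMIs and point size for the UMI total. The Bergmann index followed the Purkinje index (Pearson 0.90) and the granule index ran against it (-0.48).

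The genes outside that index and the rule that followed the Purkinje index most closely, among 1935 genes with at least 100 CPM, were Pvalb at 0.88, Itpr1 at 0.85, Inpp5a at 0.83 and Dner (a Notch ligand of Purkinje cells) at 0.82. The first 10 also included Nsg1, Timp4, Slc1a3 and Rgs8, between 0.80 and 0.76, and of these Timp4 and Slc1a3 are also in the Bergmann index. With the granule index, whose own genes and those of the rule were left out, the first 10 of 1934 included Snap25 at 0.79, Rnf112 at 0.78, Diras2 at 0.75 and Calb2 at 0.70, and then Nrep, Kcnd2, Cplx2, Adcy1 and Vsnl1 between 0.67 and 0.64. Snap25, a synaptic vesicle fusion protein found in most neurons, had 2130 CPM in the cerebellar spots and 2207 CPM in the other spots. It followed the granule index without being higher in the cerebellar spots as a whole. Calb2, the calcium buffer calretinin, had 381 CPM in the cerebellar spots and 158 CPM in the other spots.

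The spots were divided by the difference of the indices into 25 Purkinje-high, 25 middle and 25 granule-high spots, and genes of those indices are left aside below because they made the division. The depth of the 3 sets differed, with median UMI totals of 19923, 19147 and 7246 in the Purkinje-high, middle and granule-high spots, and mitochondrially encoded shares of 15.5%, 15.05% and 8.02%. The part of depth and of this share in the differences was not tested. Of the 9756 genes, 908 (9.31%) were at least 2-fold higher and 1343 (13.8%) at least 2-fold lower in the Purkinje-high than in the granule-high spots. The filter was not set on these sets, and the granule-high spots held only 230734 UMIs, so scarce genes had few UMIs there. How many of these ratios had an interval wholly beyond 2-fold was not counted, and nothing is read from these shares. Itpr1 had 2433 CPM in the Purkinje-high spots, 1504 CPM in the middle and 312 CPM in the granule-high spots. Gdf10 of Bergmann glia had 246, 146 and 52.0 CPM, and Kit of molecular layer interneurons 104, 74.2 and 8.67 CPM, in the same order. All 12 Purkinje cell list genes past the filter and outside the index were highest in the Purkinje-high spots. For some the intervals overlapped. Foxp2 had 26.0 CPM (13.8 to 44.5) there and 21.7 CPM (7.04 to 50.6) in the granule-high spots, and Plcb4 250 (208 to 298) and 234 CPM (176 to 305). How many of all tested genes were highest in each set was not counted, so such counts of list genes, here and below, have no background share. Of 12 Bergmann glia genes 7 were highest there, 3 in the middle and 2 in the granule-high spots, and of 12 stellate and basket cell genes 8, 2 and 2 in the same order. The exceptions included Aqp4, a glial water channel, with 144 CPM in the Purkinje-high spots, 209 CPM in the middle and 152 CPM in the granule-high spots, and Cacna2d1, a calcium channel subunit, with 26.0, 60.7 and 73.7 CPM.

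Of 12 granule cell list genes past the filter and outside the index, 11 were highest in the granule-high spots and 1, Tubb2b (a tubulin), in the Purkinje-high spots. Gabrd had 130 CPM in the Purkinje-high spots, 151 CPM in the middle and 407 CPM in the granule-high spots. Grm4 had 74.03, 128 and 277 CPM, and Calb2 280, 299 and 758 CPM, in the same order. Reln, which granule cells secrete as reelin, had 76.0, 139 and 234 CPM. Receptor and channel genes divided between the sets. Gria4 had 300 CPM in the Purkinje-high spots, 182 CPM in the middle and 86.7 CPM in the granule-high spots, whereas Scn2a, a sodium channel, had 60.02, 112 and 269 CPM. Cacna1g had 96.0, 49.4 and 26.0 CPM, whereas Kcnc1, the Kv3.1 channel, had 238, 346 and 698 CPM. Cacna1a, used by both neurons, had 152, 187 and 269 CPM.

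**Figure D4:**
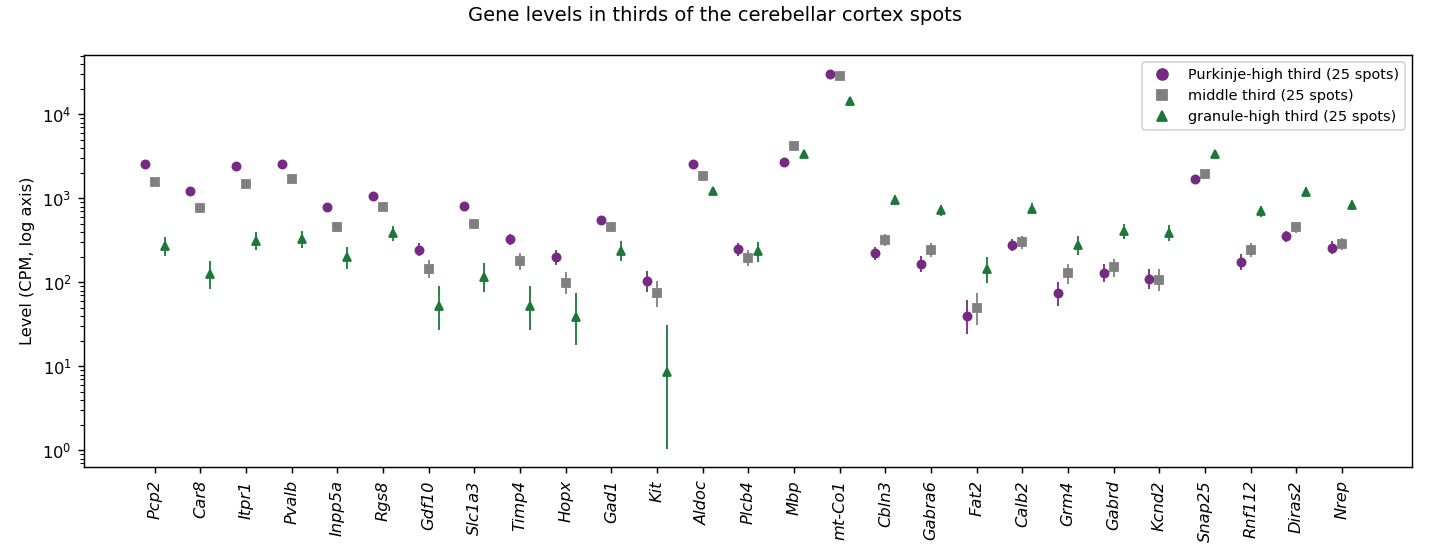
Summed level (CPM, log axis) of genes in the 25 Purkinje-high, 25 middle and 25 granule-high cerebellar cortex spots, with 95% counting intervals as bars. Itpr1 was at 2433, 1504 and 312 CPM in the 3 sets and Gabrd at 130, 151 and 407 CPM.

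Purkinje cells form zebrin bands, in which Aldoc (zebrin II) and Plcb4 mark alternating groups. Of 10 genes of these compartments 9 passed the filter, with Slc1a6 and Plcb4 higher and Nrgn lower. Aldoc, which astrocytes also express, had 2042 CPM in the cerebellar spots, 1495 CPM in the other spots and 1169 CPM in section 2. Plcb4 had 227 CPM in the cerebellar spots, 101 CPM in the other spots and 77.2 CPM in section 2. Across the 75 spots the correlation of Aldoc and Plcb4 was 0.38, and it was 0.15 in the 38 deeper and 0.51 in the 37 shallower spots. Both genes also followed the Purkinje index, at 0.59 for Aldoc and 0.33 for Plcb4. With the granule index the values were -0.20 for Aldoc and 0.25 for Plcb4, so Plcb4 did not follow the Purkinje index alone. Neither index was held fixed, so these values cannot decide whether the genes alternate between spots. Aldoc had 2571 CPM in the Purkinje-high, 1872 CPM in the middle and 1222 CPM in the granule-high spots, while Plcb4 had 250, 198 and 234 CPM.

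The share of mitochondrially encoded UMIs spread widely within the cerebellar spots. Its lowest, median and highest values were 4.78%, 9.88% and 27.5% in the cerebellar spots, 4.74%, 14.9% and 27.3% in the other spots of section 1, and 6.91%, 14.4% and 36.7% in section 2. At a line of 12% drawn after these values were seen, 44 of the 75 cerebellar spots (58.7%) lay below, against 12.8% of the other spots and 12.1% of section 2. The 44 included 24 of the 25 granule-high spots, and the 31 at or above it included 16 of the 25 Purkinje-high spots. Gabra6 had 516 CPM in the 44 spots and 113 CPM in the 31, and Pcp2 had 1297 and 2138 CPM. The correlation of Purkinje and granule index was -0.58 in the 44 and 0.30 in the 31 spots. The median UMI total was 9593 in the 44 and 19923 in the 31 spots, and the part of this share and of depth in the other results was not tested.

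Outside the 75 spots, the cerebellar genes that did not enter the rule were much lower at the next ranks of the score. Ppp1r17 had 319 CPM at ranks 1 to 75, 19.8 CPM at ranks 76 to 150, 8.55 CPM at ranks 151 to 300 and 8.78 CPM at ranks 1201 to 3030, against 1.61 CPM in section 2. Cnpy1 had 136, 23.8, 8.93 and 8.98 CPM at the same ranks, against 0.269 CPM in section 2. Neurod1 had 259, 31.7, 22.5 and 23.0 CPM, against 12 CPM in section 2. Beyond rank 150 these 3 genes kept a low, even level in section 1 that lay above their level in section 2. Calb1 did not, at 872, 104, 109 and 102 CPM, against 126 CPM in section 2. The source of the low level was not tested.

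**Figure D5:**
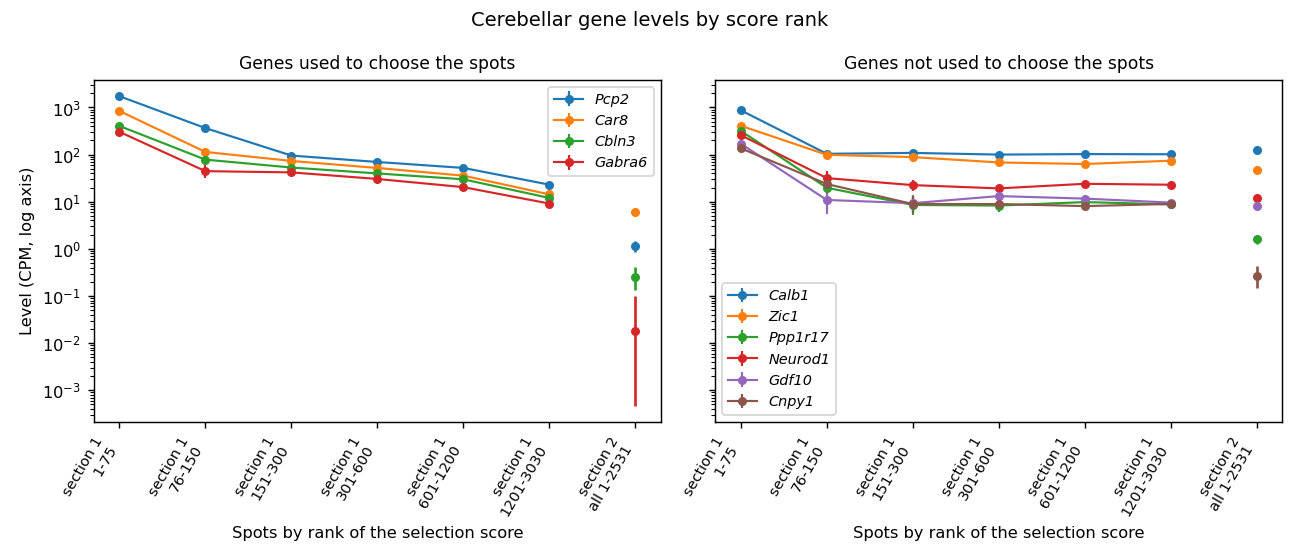
Summed level (CPM, log axis) of cerebellar genes by rank of the selection score in section 1 and over all kept spots of section 2, for genes used in the choice (left) and not used (right), with 95% counting intervals. Ppp1r17 was at 319 CPM in ranks 1 to 75, 19.8 CPM in ranks 76 to 150 and 1.61 CPM in section 2.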

How the data were processed

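RNA was measured in 2 sections of mouse brain. The deposited values are raw UMI counts per gene and spot, made by the authors with Space Ranger, version 1.2.2 for section 1 and 2.0.1 for section 2 per the file headers. The submitters' processing notes name Space Ranger 2.0.1 and mm10 for both sections. The release of the gene annotation: not given in the sources used here. No use was made of spot positions. The files list 32285 genes, and promoter coordinates refer to RefSeq on GRCm38.p6.

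Spots with at least 500 UMIs were kept, and no doublet caller was run because a spot can hold several cells. The 75 highest scoring spots of section 1 were summed and set against other summed spots as CPM. A log2 ratio has an exact conditional binomial interval and a CPM an exact Poisson interval, both at 95%. Genes with a mean of both CPM values of at least 10 were counted, and a gene was called at a 2-fold ratio. The ratio, its interval and the 2-fold call were tested on simulated sums with counting error only (Python 3.11.15, numpy 2.4.6). The choice of spots, the indices, the correlations and the division of the spots were not simulated. TMM factors of edgeR 4.0.16 (R 4.3.3) served as an alternative only.

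Genes were named as the 15 highest and 10 lowest ratios at a mean of at least 50 CPM, the 10 genes that followed each index most closely at 100 CPM or more, and members of 39 lists with 393 symbols, all of which matched the files. The marker genes, lists and members were chosen with earlier results of these data known. Some genes that the naming rule selects are not reported here, and counts of the lists include them. Alternatives changed the number of spots, the UMI minimum, the scoring genes, the weight of spots, the scaling, the filter and the comparison spots.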

Additional observations from a re-analysis of the deposited data

Results flagged for a closer look

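The highest scoring spot of section 2 had a score of 0.887 on the 5 marker genes, against a next highest score of 0.227 in that section and a lowest score of 0.918 among the 75 cerebellar spots of section 1. It was singled out because of this gap to the next spot. The spot had 15263 UMIs, with 13 of the 63 Pcp2 UMIs and 12 of the 337 Car8 UMIs of section 2, and with 15 UMIs of Gng13, 21 of Itpr1, 9 of Calb1 and 2 of Ppp1r17. Cbln3, Gabra6, Fat2 and Neurod1 were at 0 in it and Cbln1 had 1 UMI. The source of this RNA was not tested.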

How the results depend on the processing

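The count of genes at least 2-fold higher in the cerebellar spots, 371, was 602 when each spot weighed the same, 1690 with no filter on low values and 124 with a mean of at least 50 CPM. The count of lower genes, 202, was 6731 with no filter, 41 with a mean of at least 50 CPM and 359 against section 2 with the filter set on the CPM of these spots and section 2 (320 among the 9756 genes filtered on section 1). The number of genes tested changes with the filter, and the cause of the other shifts was not tested. The correlation of Purkinje and granule index, -0.48, was -0.64 among 50 spots, -0.047 among 100, -0.31 at 5000 UMIs or more, 0.35 with a score of Pcp2 and Car8 and 0.12 with a score of Cbln3, Gabra6 and Fat2. The Spearman correlation of Purkinje index with granule index was 0.00478 among 100 spots, 0.39 with the score of Pcp2 and Car8 and 0.0813 with that of Cbln3, Gabra6 and Fat2. Of 333 listed or named genes tested and reported, 87 were beyond 2-fold, 60 of them in all 14 settings. Settings that changed only the filter cannot move the ratio of a gene, so they add nothing to the count of 60. With no UMI minimum, and with the spots next in score left out of the other spots, all 333 ratios also counted as unmoved. Gabrd, Calb2, Pax6, Kcnj12, Meis2, Grid1, Pdyn, Cx3cr1 and Tmem119 came within 2-fold with the score of Pcp2 and Car8, Nfil3 among 100 spots, Arc, Egr1, Egr3, Lamp5, Cux2, Cacna1g and Grik1 against section 2, and Camk2a, Nrgn, Mpped1, Stx1a, Lmo4, Grm5, Cacna1h, S100b and Ppp1r16b when each spot weighed the same. The log2 ratio of Rgs9, -1.24 in the main setting, changed sign to 0.11 with the score of Cbln3, Gabra6 and Fat2. It was -0.25 among 100 spots and -0.049 when each spot weighed the same. No paired analysis was possible because both sections form 1 group and no test was run. Depth limits genes under about 10 CPM, for which the 75 spots hold few UMIs.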

Other observations

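Calcium-binding protein genes lay on both sides in the cerebellar spots, with 5 of 18 at least 2-fold higher than in the other spots of section 1 and 1 lower. For this list and those that follow, the shares over all 9756 genes were 3.8% higher and 2.07% lower. Hpcal1, a neuronal calcium sensor, had 284 CPM in the cerebellar spots, 63.2 CPM in the other spots and 98.98 CPM in section 2. Its relative Hpca, hippocalcin, had 236 CPM in the cerebellar spots, 452 CPM in the other spots and 655 CPM in section 2. S100b, a glial calcium-binding protein, had 610 CPM in the cerebellar spots, 295 CPM in the other spots and 200 CPM in section 2, and its log2 ratio of 1.05 over the other spots was 0.67 when each spot weighed the same. Of 8 genes of reelin signalling and migration, Reln was higher, at 131 CPM in the cerebellar spots, 39.6 CPM in the other spots and 51.9 CPM in section 2. Its receptor Vldlr had 42.5 CPM in the cerebellar spots and 31.3 CPM in the other spots, and the adaptor Dab1 had 56.1 and 46.5 CPM.

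The cerebellin list had 10 of 13 genes past the filter, with 2 at least 2-fold higher, among them Cbln1, and Grid1 and C1ql2 lower, of which Grid1 came within 2-fold in 3 alternative settings (log2 ratios of -0.97 to -0.82). The transporter list had 11 of 12 past the filter, with Slc1a3 and Slc1a6 higher and none lower, and Slc6a11, the GABA transporter GAT-3, had 175 CPM in the cerebellar spots and 327 CPM in the other spots. All 7 oligodendrocyte precursor and 13 mitochondrially encoded genes passed the filter, as did 6 of 8 leptomeninges, 4 of 5 red blood cell and 6 of 10 perineuronal net genes. None of those past the filter was called at 2-fold. Red blood cell genes summed to 987 CPM in the cerebellar spots, 1454 CPM in the other spots and 1426 CPM in section 2.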
